A study of Tuber borchii with 4 samples.

Results

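Of the 12346 gene models of Tuber borchii, 237 were both highly and evenly transcribed in the 4 culture media of the study. A gene model was counted as a member of this set when it had at least 100 CPM in each of the 4 libraries and when its highest CPM was at most 1.2 times its lowest. CPM scales the count of a gene to a library of 1000000 counts. The 237 members were chosen from the same values that are described here, so their evenness is a description of these 4 libraries and was not tested. They made up 1.92% of all gene models. A minimum of 100 CPM in every library was reached by 1892 gene models, 15.3% of all, and 12.5% of these 1892 were members.

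The libraries came from mycelium of strain SP1, a single isolate, which was grown in the dark at 22 °C in static liquid culture. WPG was woody plant medium with 20 g/L glucose, and WPGY held 5 g/L yeast extract in addition. Both were harvested on day 65 according to the labels. PDB was potato dextrose broth at 20 g/L. MPY was made of yeast extract and peptone at 5 g/L each and maltose at 35 g/L. These 2 complex media were harvested on day 85. The headers of the count columns name somewhat earlier days for WPG, WPGY and MPY. In these libraries the kind of medium (woody-plant-based or complex) and the age of the culture cannot be told apart. With a single library for each medium, there are no replicates to check a difference or a likeness against, and p-values are not given. The library totals were 47969567 counts for MPY, 116376579 for WPG, 125457058 for WPGY and 157335190 for PDB. Intervals are 95% Wilson intervals, or 95% intervals of a ratio of 2 counts, and they cover counting error only.

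Genes whose transcript level changes little between growth conditions are often called housekeeping genes, because many of them serve functions that a cell needs whatever its food. Evenly transcribed genes are also used as references, against which the transcript levels of other genes are scaled in quantitative PCR. Genes such as actin, tubulin, GAPDH and histones are common choices in fungi, and whether a reference is stable has to be checked for each set of conditions. Growing hyphae extend at their tips by delivery of vesicles and by synthesis of cell wall, so that membrane traffic is a basic task of a growing mycelium.

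The highest to lowest ratio of the 237 members lay between 1.02 and 1.199, with a median of 1.14. The other 1655 genes of at least 100 CPM had a median ratio of 1.63 and a maximum of 57.1. The distribution had no gap at the limit. Within a ratio of 1.1 there were 59 genes (3.12% of the 1892), within 1.3 there were 452 (23.9%), within 1.5 there were 875 (46.2%) and within 2 there were 1439 (76.1%). The members are therefore the low end of a continuous range and not a separate class.

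**Figure D1:**
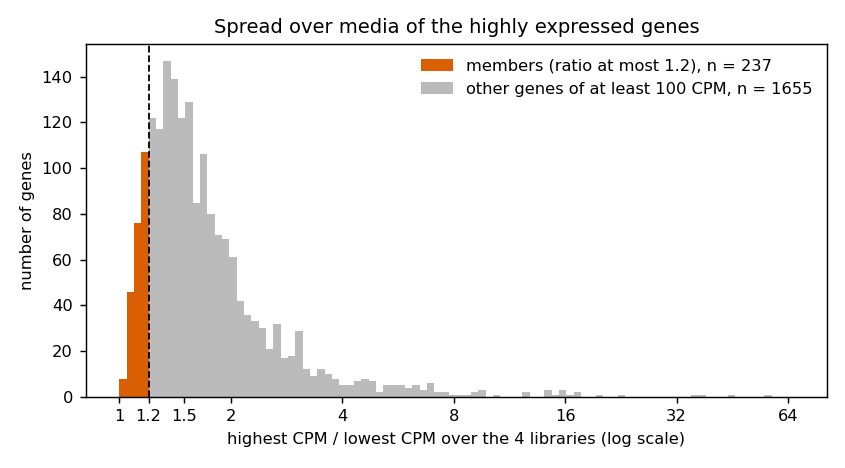
Number of genes (vertical axis) by the ratio of the highest to the lowest CPM over the 4 libraries (horizontal axis, log scale), for 1892 gene models of at least 100 CPM in every library. The 237 members, left of the dashed line at 1.2, run without a gap into the other 1655 genes, whose median ratio was 1.63.

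The genes nearest to the limit show how narrow the choice was. Just inside it, gene 979870 had 169 CPM in WPG and 167 in WPGY, against 141 in PDB and 142 in MPY, a ratio of 1.199. Gene 1103689 had 446, 449, 420.2 and 503 CPM in the same order, a ratio of 1.198. Just outside, gene 1056799 had 309 CPM in WPG and 300.5 in WPGY, against 275 in PDB and 330 in MPY and a ratio of 1.20015. Gene 1077564 followed at 1.20038. By counting error alone, the ratio interval of 46 members reached past 1.2, and that of 63 genes outside the limit reached down to it. At the level limit, 27 members had a lowest value under 110 CPM, and 24 genes were as even but had a lowest value from 90 to under 100 CPM.

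Most of the most even members were not covered by the annotation text at hand and are given by their protein ID. Gene 1118780 had 106 CPM in WPG and 104 in WPGY, against 107 in PDB and 104 in MPY, and gene 1086566 had 107, 106, 104 and 107 CPM. For these 2 genes the interval of the highest library overlapped that of the lowest, which does not by itself mean that no difference was detectable. For the other 235 members the intervals of the highest and the lowest library did not overlap, and their small differences were larger than counting error. Gene 994461 had 132 CPM in WPG and 132 in WPGY, against 130.4 in PDB and 127 in MPY, and gene 1101910 had 199.6, 196, 196 and 191 CPM. In both of them MPY was lowest, by a ratio of 1.04.

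At a higher level, gene 1041866 had 370.07 CPM in WPG and 374 in WPGY, against 360.3 in PDB and 376 in MPY, and gene 1087009 had 327, 327, 313 and 316 CPM. Gene 1103368 had 426 CPM in WPG and 411 in WPGY, against 419 in PDB and 407 in MPY. Its model overlaps another one, and how reads within the overlap were assigned is not known. Gene 1026825 had 194, 195, 201 and 192 CPM and gene 1087177 had 116, 114, 119 and 119 CPM. The ratio of these 5 genes lay between 1.04 and 1.05, and no medium was highest or lowest in all of them. Together with the 4 genes before, they are 9 of the 10 members of smallest ratio.

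In CPM, the highest member was gene 1079490 (sequence 64, from 282494 to 284558). It had 4402 CPM in WPG and 4402 in WPGY, against 4740.2 in PDB and 5213 in MPY, with MPY highest by a ratio of 1.18 (interval 1.18 to 1.19). It has no annotation text here. Gene 1124376 (sequence 77, from 137722 to 138383), annotated as a histone of the H3 and H4 kind, had 2636 CPM in WPG and 2610.5 in WPGY, against 2655 in PDB and 2285 in MPY. Histones H3 and H4 form the core of the nucleosome. The first 3 libraries lay close together and MPY was lower, at a ratio of 1.16 (interval 1.15 to 1.17). On the mean length-scaled value, which takes the count per length of the model with its introns (662 bp for 1124376) and brings each library to a sum of 1000000, 1124376 was the highest member and ranked 12 among all models, whereas 1079490 ranked 18.

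For comparison, 2 well-known genes outside the set were picked after their values were seen. The histone H4 model 961630 had 1077 CPM in WPG and 1084 in WPGY, against 947 in PDB and 798 in MPY, a ratio of 1.36. In both histone models MPY was the lowest library. Histone genes occur in near-identical copies, and since the treatment of reads that map to several places is not stated, the values of single histone models are uncertain. The GAPDH model 1079835, whose enzyme catalyses a step of glycolysis and which is a usual reference gene, was far from even. It had 562 CPM in WPG and 560.4 in WPGY, against 1820.0 in PDB and 2691 in MPY, a ratio of 4.80. The paper assigns only the catalytic domain of the enzyme to this model. The model overlaps model 957843, to which the paper assigns the NAD binding domain and which had a ratio of 4.90. How reads within the overlap were assigned is not known. The keyword list of common reference genes met 8 models in the annotation text at hand, mostly ubiquitin-conjugating enzymes and actin-related proteins and none of the usual references themselves, and the highest value among these 8 was 96.1 CPM.

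A further 7 of the 10 members of highest mean CPM have no annotation text here. Gene 1196710 had 1757 CPM in WPG and 1815 in WPGY, against 1907 in PDB and 1664 in MPY, and gene 1002161 had 1672, 1715, 1508.5 and 1568 CPM. The former was highest in PDB, where the latter was lowest. Gene 1133392 had 929 CPM in WPG and 979 in WPGY, against 1031 in PDB and 873 in MPY, and gene 1077311 had 929, 989, 895 and 925 CPM. Gene 974542 had 774, 750.3, 688 and 818 CPM, gene 983297 had 565, 549, 633 and 600.3 CPM, and gene 307445 had 581, 568, 546 and 590.02 CPM. PDB was the lowest library for 4 of these 7 genes and the highest for the other 3.

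**Figure D2:**
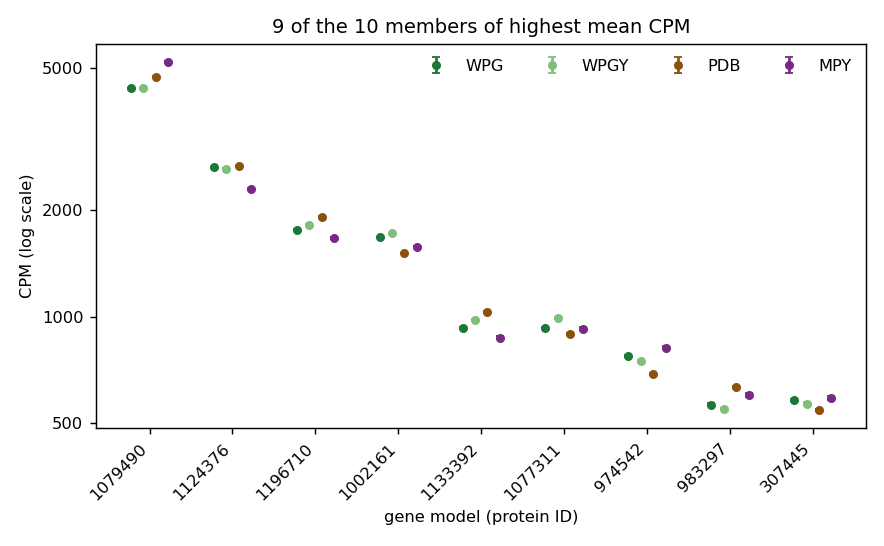
CPM (vertical axis, log scale) of 9 of the 10 members of highest mean CPM (horizontal axis, protein ID) in the 4 libraries, with 95% Wilson intervals that are smaller than the points. Gene 1124376 lies lowest in MPY, at 2285 CPM, whereas gene 1079490 lies at 4402 CPM in WPG and 5213 CPM in MPY.

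The members were also set against the most transcribed genes. Of the 10 genes with the highest mean length-scaled value none was a member, of the highest 40 there were 2, and of the highest 100 there were 4. By mean CPM, on which the set is defined, 1 of the highest 10, 4 of the highest 40 and 5 of the highest 100 were members. Beside this, members made up 1.92% of all gene models and 12.5% of the high genes. A ranking by the mean also raises genes that are very high in some media only, which the rule leaves out. An example is gene 990338, with length-scaled values of 69429 in WPG and 2158 in PDB. The median length-scaled value was 138 for the members and 168 for the other genes of at least 100 CPM. The members took 6.36% of the counts in WPG and 6.40% in WPGY, against 6.35% in PDB and 6.41% in MPY, and the widest of these intervals was that of MPY, from 6.40% to 6.41%. A near-constant sum of counts follows from the rule. On the length-scaled values the members took 5.20% in WPG and 5.25% in WPGY, against 5.63% in PDB and 5.65% in MPY. From 59.9% (PDB) to 62.8% (WPGY) of the counts fell to the other 1655 genes. Most of the counts thus lay in genes of at least 100 CPM that differed by more than 1.2-fold between media. These are shares of counts, whereas the transcription effort of the paper is a share of TPM values.

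The span of the gene models had a similar median in the members and in the other high genes. The median span was 2067 bp for the members and 2048 bp for the others, against 1241 bp for the 12345 models with a span. CPM is not scaled by length, so a longer model reaches the minimum of 100 CPM at a lower transcript level. The longer median of the high genes than of all models follows in part from this. Members made up 11.3% of the high genes with a span under 1000 bp, 12.6% from 1000 to under 2000 bp, 12.3% from 2000 to under 4000 bp and 14.1% from 4000 bp on, around the 12.5% over all of them. Spans under 500 bp were found for 1 member (0.422%, at 447 bp) and 34 others (2.05%), and spans over 5000 bp for 8 members (3.38%) and 87 others (5.26%). The model of 21 members (8.86%) overlapped another model, against 7.98% of the others.

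The members lay on 138 of the 361 assembled sequences that carry a high gene, and 81 of these sequences held a single member. The most were on sequence 1, with 7 of its 28 high genes (25%, against 12.5% of all high genes), and this sequence was picked for its count. Of 419 pairs of high genes with no other gene model between them, 104 (24.8%) held at least 1 member and 7 (1.67%) held 2. Since 12.5% of all high genes were members, such pairs also arise where members are placed without regard to each other. Whether members lay together was not tested. The gaps between the models of these 7 pairs were at most 1558 bp.

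Functions could be read for few members. The annotation text at hand covered 827 gene models, among them 124 of the 1892 high genes and 11 members, and it named a function for 9 of the 11. The counts below come from this incomplete text and describe the listed genes only. The background beside them is 11 members among the 124 high genes in the text, or 9 among the 106 for which it holds a description. Of 8 high genes matched to vesicle traffic, 3 were members, and GVP36 and VPS11 were among them. Gene 1101202 (GVP36), a BAR domain protein of a kind that binds curved membranes, had 329.5 CPM in WPG and 333 in WPGY, against 346 in PDB and 369 in MPY. Gene 1082628 (VPS11), a subunit of the complexes that tether vesicles to the yeast vacuole and endosome, had 155, 151, 158 and 178 CPM. Both were highest in MPY, by a ratio of 1.12 and 1.18. The retromer subunit VPS35 (gene 1083463) was just outside the set at 218 CPM in WPG and 208 in WPGY, against 252 in PDB and 206 in MPY, and the coat protein SEC24 (gene 1082851) was well outside it, at 489, 502, 238 and 281 CPM.

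Of 8 high genes matched to splicing and RNA processing, 2 were members. Gene 1013814, annotated as subunit PTA1 of the factor that cleaves and polyadenylates mRNA, had 122.8 CPM in WPG and 118 in WPGY, against 124 in PDB and 122 in MPY, a ratio of 1.05. Gene 1070186 (PNO1), which acts in the assembly of the small ribosomal subunit in yeast, had 102, 101, 110 and 104 CPM, a ratio of 1.09. The keyword search also placed PNO1 in the proteasome list, since its annotation mentions proteasome assembly. Its 2 companions in that list, the proteasome subunit RPN10 and the autophagy kinase ATG1, had ratios of 1.42 and 1.37. The other 6 genes of RNA processing had ratios from 1.51 to 1.62, so that the members and the others of this list did not adjoin.

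The single high gene of the histone and chromatin list, gene 960571 with an SPT2 chromatin protein domain, was a member with 167 CPM in WPG and 163 in WPGY, against 177 in PDB and 177 in MPY. In yeast Spt2 binds histones during transcription. Its model overlaps another one. Of 5 high genes of the ubiquitin system, the only member was gene 1139936, annotated as the ubiquitin conjugation factor UFD2. In yeast Ufd2 lengthens ubiquitin chains on proteins that are to be degraded. UFD2 had 187 CPM in WPG and 192 in WPGY, against 185 in PDB and 213 in MPY, a ratio of 1.15 with MPY above the other 3 libraries. In 2 further members, PEX11 and a Kelch repeat protein, the function lay outside the lists. Gene 48024 (PEX11), which in yeast promotes the division of peroxisomes, had 138 CPM in WPG and 140.2 in WPGY, against 162 in PDB and 152 in MPY, with both complex media above both woody-plant-based media. Gene 1083839, the Kelch repeat protein, had 202, 197, 186 and 198 CPM and was lowest in PDB.

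Several groups held no member in this text. None of 6 high genes of ribosomal proteins was a member, and their ratios ran from 1.35 for RPL15 (gene 1083004) to 2.97 for a model with an L24e domain (gene 960792). RPL15 had 207 CPM in WPG and 203 in WPGY, against 193 in PDB and 153 in MPY. By keyword match, none of 8 high genes in the list of kinases and phosphatases (ratios from 1.35 to 2.62) was a member either. The same held for 4 of the transcription list, 3 of the chaperones and 3 of glycolysis and the citrate cycle. It also held for 3 of the transporter list and 2 of the translation factor list. Nor was the single high gene of the cytoskeleton list a member, a dynein light intermediate chain (ratio 1.23). Such a match can misplace a gene. In the translation factor list, gene 1060281 is also described as the Woronin body major protein. In the transporter list, gene 1047426 is described as a transcriptional regulator of leucine permease and a Sac3 domain protein. The lists of aminoacyl-tRNA synthetases, the V-ATPase and the respiratory chain held no high gene. With 12.5% of all high genes in the set, and 9 of the 106 high genes described in this text, lists of this size hold few members or none at the background share. These counts say nothing particular of the lists.

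The order of the media was not the same in all members. Of the 237, 65 had both complex media above both woody-plant-based media, 65 had the opposite order, and 107 were mixed. Among the other high genes the same orders took 651 (39.3%), 493 (29.8%) and 511 (30.9%). MPY was the highest library of 73 members, PDB of 69, WPGY of 49 and WPG of 46, whereas PDB was the lowest of 80, MPY of 72, WPG of 46 and WPGY of 39. The median ratio of MPY to WPG was 1.00 in the members and 1.09 in the others, and that of PDB to WPG was 0.998 and 1.08. The rule holds every such ratio of a member within 1.2-fold, and so also limits the deviations given next. The comparison with the others is therefore a description and no test. The median deviation of a member from its own mean lay between -0.510% in WPG and 0.257% in WPGY, and single members deviated from -12.0% to 12.5%, both in MPY. Since WPG and WPGY had close values, they shared the places of highest and lowest library and drew the mean toward them. The counts by library and the deviations follow in part from this.

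**Figure D3:**
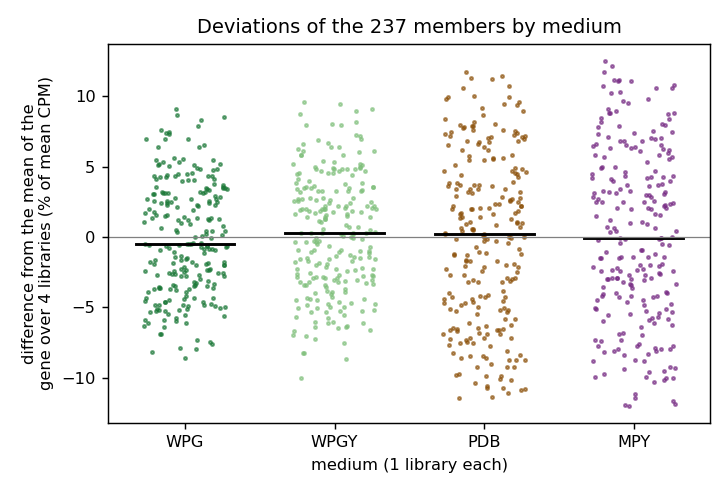
Difference of each of the 237 members from its own mean over the 4 libraries (vertical axis, % of mean CPM) in each medium (horizontal axis, 1 library each), with the median as a black line. The medians lie near 0 in all media, and the rule itself limits these differences. The points of PDB and MPY spread more widely than those of WPG and WPGY. WPG and WPGY had close values (median ratio 1.02), which draws the mean toward them, so the wider spread follows in part from the computation.

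The difference between WPG and WPGY alone removed few genes, since 99.4% of the 1892 high genes were within 1.2-fold between them. The corresponding share was 39.8% for WPG and PDB, 33.6% for WPG and MPY, 41.4% for WPGY and PDB, 34.5% for WPGY and MPY, and 38.5% (729 genes) for PDB and MPY. The woody-plant-based libraries together thus took the set from these 729 genes to 237. Between WPG and WPGY the median member differed by a ratio of 1.02, and the other high genes had the same median of 1.02. Without the PDB library 629 genes would have met the rule, and without the MPY library 819 would have, against 275 without WPG and 264 without WPGY. In each of the last 2 cases the other woody-plant-based library, with values close to those of the one left out, still limited the set. All 237 members were among the genes found in each of these 4 cases, as the rule can only gain genes when a library is left out.

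The choice of members depended on how the libraries were scaled. Library totals are moved by a few very high genes, and other scalings set the libraries against each other by the bulk of the genes. With median-of-ratios size factors 238 genes met the rule (12.5% of those over the minimum), of which 147 were shared (62.0% of the members and 61.8% of the new list). With the TMM factors of edgeR 242 genes met it (12.7%) and 170 were shared. With the upper quartile 217 met it (11.5%) and 149 were shared, and with totals that leave out the 10 highest genes of each library 227 met it (12%) and 193 were shared. The shift was not uniform. Under median-of-ratios scaling, which raised PDB by 0.11 and MPY by 0.14 on the log2 scale relative to WPG, 65 of the 65 members with woody-plant-based media on top met the rule, but 10 of the 65 members with complex media on top did. The upper quartile shifted PDB by -0.13 on the log2 scale relative to WPG, and there 26 of the former and 59 of the latter met it. No member had a ratio above 1.32 under any of the 5 scalings.

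**Figure D4:**
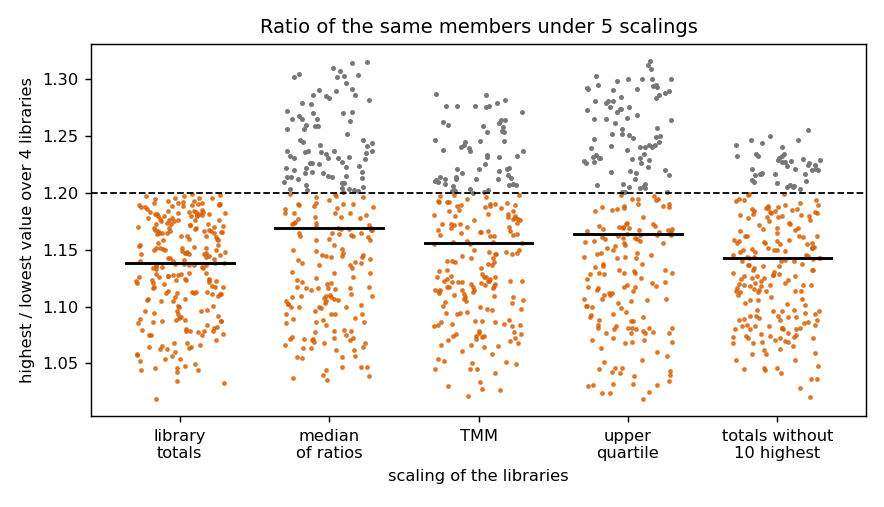
Ratio of the highest to the lowest value (vertical axis) of the same 237 members under 5 scalings of the libraries (horizontal axis), with the median as a black line, the limit of 1.2 dashed, and members above it in grey. The median is 1.14 with library totals, 1.17 with median of ratios and 1.16 with TMM and with the upper quartile.

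Under all 5 scalings, 80 of the 237 members (33.8%) met the rule each time. These 80 genes had mean values from 105 to 2547 CPM, with a median of 179.7, and a median span of 1822 bp. The histone model 1124376, gene 1196710, the PTA1 model 1013814, the SPT2 model 960571 and the Kelch model 1083839 were among them, and so was gene 307445. Most of the other members of highest CPM were not. Gene 1079490, the highest in CPM, had a ratio of 1.31 under median of ratios and 1.28 under TMM. Gene 983297 had ratios of 1.24 and 1.21 under the same scalings, and gene 1133392 was just over the limit under median of ratios, at 1.20061. Gene 1002161 had a ratio of 1.25 and gene 1077311 one of 1.22 under the upper quartile. Gene 974542 was over the limit under all 4 other scalings, with ratios from 1.21 to 1.29. Of the 10 members of smallest ratio, 9 were, and the exception, gene 1086566, kept a ratio of at most 1.13 but fell under the minimum of 100 in a scaling. PNO1 kept a ratio of at most 1.17 but also fell under the minimum. UFD2, GVP36, VPS11 and PEX11 were not among the 80, with ratios between 1.24 and 1.297 under median-of-ratios scaling.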

How the data were processed

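The deposited files give whole-number counts per gene model, 1 file per library, with no normalization. Per the labels and the study's methods, the authors checked reads with FastQC, trimmed them with Trimmomatic, mapped them with STAR on the Galaxy platform to the genome of strain Tbo3840 and counted them with featureCounts. Strandedness and the treatment of reads mapping to several places in the counting are not given in the sources used here. Since the mycelium was strain SP1, differences between the strains can lower the counts of single genes in all media.

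CPM, length-scaled values, ratios and Wilson intervals were computed in Python 3.11.15 with pandas 2.3.3, numpy 2.4.6 and scipy 1.17.1, and TMM factors with edgeR 4.0.16 in R 4.3.3. Spans include introns and come from the Tubbor1 assembly table, whose sequence numbers are used, and 12345 of 12346 models had a row. The script applying the rule was tested on simulated data. The genes named are the 10 members of highest mean CPM, the 10 of smallest ratio, genes nearest to the ratio limit, the members of highest CPM in each functional list, and members with annotation text. Results for some genes that this choice covers are not reported here. Genes outside the set are named for comparison and were picked after their values were seen. The members and the lists were chosen with earlier results of these data known. With 1 library per medium no test was made. Lists were matched by keywords to an incomplete annotation table. Alternatives were other scalings, ratio limits, minimum CPM, equal depth, length scaling and leaving out each library.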

Additional observations from a re-analysis of the deposited data

How the results depend on the processing

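The number of members, 237 as reported, followed the limits that define it. It was 59, 452, 875 and 1439 with a ratio limit of 1.1, 1.3, 1.5 and 2, and 411, 93 and 639 with a minimum of 50, 200 and 1 CPM. Leaving out 1 library gave between 264 genes (without WPGY) and 819 (without MPY). Requiring all 5 scalings at once, an alternative chosen after seeing the data, left 80. The share of counts in WPG, WPGY, PDB and MPY was 6.06%, 6.0952%, 5.68% and 5.54% with median-of-ratios membership and 1.29%, 1.29961%, 1.30156% and 1.29% with a limit of 1.1. It was 22.9%, 23.04%, 23.3% and 23.36% with a limit of 1.5. With a minimum of 50 CPM it was 7.70139%, 7.73%, 7.70378% and 7.75%, and with 200 CPM 4.15%, 4.19%, 4.13% and 4.20132%. The median span was 1628 bp with a limit of 1.1 and 1821 bp with a minimum of 50 CPM. The members in functional lists numbered 7, and 4, 25, 13 and 2 with limits of 1.1 and 1.5 and minimums of 50 and 200 CPM. Beside this, the whole set numbered 237, and 59, 875, 411 and 93 under the same settings. Of all 1892 high genes, 12.5% met the rule, 3.12% with a limit of 1.1 and 46.2% with 1.5. The list counts were not compared with these shares by a test. Thinning all libraries to the depth of MPY gave 235 genes, 227 of them shared, and the length-scaled values gave 181, with 102 shared. No paired analysis was possible because each medium has 1 library. For the same reason the spread between cultures is unknown, and depth limits the smallest ratios and the calls near the limit of 1.2, where the ratio intervals of 46 members and of 63 genes outside reach it. The lowest count of a member, 4823 in MPY, has an interval of 2.82% to either side.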

Other observations

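Evenness was also found below the level at which members were chosen. Of 4473 gene models whose lowest value lay from 10 to under 100 CPM, 367 (8.20%) had a ratio of at most 1.2, against 12.5% of the 1892 models of at least 100 CPM. Among the latter, however, the share of members was lower at a higher mean CPM. It was 16.4% from 100 to under 200 CPM, 11.2% from 200 to under 500, 5.65% from 500 to under 1000 and 4.30% from 1000 on. The rule itself bears on the lowest range, since a gene with a mean near 100 CPM can reach the minimum in every library only with a small ratio. Counting error widens the ratio of low genes, and its part in these differences was not tested. Over all 5 scalings, 397 gene models met the rule in at least 1 of them.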
